A study of Mus musculus with 10 samples.

Results

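The enzymes that write, copy and remove DNA methylation were followed by the open chromatin around their genes along the reprogramming of mouse embryonic fibroblasts. The genes were Tet1, Tet2, Tet3, Dnmt1, Dnmt3a, Dnmt3b, Dnmt3l, Uhrf1 and Tdg, 9 of the 21883 protein-coding genes of the RefSeq table for build GRCm38.p6 (mm10). Every ATAC-seq peak between 30 kb before and 30 kb after each gene was taken. In ATAC-seq a transposase cuts accessible DNA and tags it for sequencing, so a peak marks a stretch of open chromatin and not the amount of the gene's RNA. The union of the 10 peak lists held 208851 regions, and 175 of them lay in the 9 windows. A library had 50 to 102 peaks in the windows, of 45497 to 88980 in its whole list.

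There were 2 libraries at each of 5 stages, all of strain C57BL/6 x 129 and all under one batch name. Fibroblasts (MEF) and cells after 3, 6 and 9 days of induction (DAY3, DAY6, DAY9) carried the genotype OKSM Col1a1/M2rtTA ROSA26, a cassette of Oct4, Klf4, Sox2 and Myc switched on by doxycycline. MEF were grown in fibroblast medium without doxycycline. The DAY3, DAY6 and DAY9 cells were in embryonic stem cell medium to which doxycycline (1 µg/ml) and ascorbic acid (50 µg/ml) had been added. The pluripotent reference was the V6.5 line (ESC), without the cassette, grown on irradiated feeder cells in the same medium with neither addition named. DAY6 and DAY9 cells were sorted for SSEA1, an early surface marker of reprogramming, and the others were not sorted. No stage separates ascorbic acid from doxycycline, so their parts in any value below cannot be told apart. Nor can sorting be told apart from day 6 and day 9, or the lack of the cassette from ESC. ESC are 1 line, the labels do not say how many animals gave the fibroblasts, and irradiated feeders may have added chromatin to the ESC libraries.

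TET1, TET2 and TET3 oxidise methylcytosine to hydroxymethylcytosine and further, in a reaction that uses iron and oxoglutarate and that ascorbic acid stimulates. TDG, a DNA glycosylase, cuts out the further oxidised bases so that repair puts back plain cytosine. DNMT1 copies methylation to the new strand after replication, guided by UHRF1, which reads DNA methylated on one strand. DNMT3A and DNMT3B set new methylation, and DNMT3L, which has no catalytic activity of its own, helps them. In embryonic stem cells Tet1, Tet2, Dnmt3b and Dnmt3l are known as expressed genes, and loss of methylation at pluripotency genes is a known step of reprogramming.

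Promoters differed in how many CG pairs they held, the pairs that these enzymes act on. The 8 stretches shown here cover 250 bases before a start site, from RefSeq's GRCm38.p6 sequence, with each CG in capitals, 5′ to 3′ on the gene's strand. They were chosen to set starts with a peak within 1 kb in nearly every library (the first 4 lines) beside starts with no listed peak, or with a peak in some libraries (the last 4 lines). The choice rests on the peaks, so the 8 lines cannot show how CG number and peaks go together.
Tet2, chr3:133544391-133544640, minus strand: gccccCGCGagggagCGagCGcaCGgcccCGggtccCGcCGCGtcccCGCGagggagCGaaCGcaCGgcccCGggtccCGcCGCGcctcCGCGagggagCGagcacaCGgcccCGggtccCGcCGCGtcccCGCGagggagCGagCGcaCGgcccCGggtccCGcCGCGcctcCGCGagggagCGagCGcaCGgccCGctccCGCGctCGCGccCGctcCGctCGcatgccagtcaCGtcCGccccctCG
Dnmt1, the main start, chr9:20952624-20952873, minus strand: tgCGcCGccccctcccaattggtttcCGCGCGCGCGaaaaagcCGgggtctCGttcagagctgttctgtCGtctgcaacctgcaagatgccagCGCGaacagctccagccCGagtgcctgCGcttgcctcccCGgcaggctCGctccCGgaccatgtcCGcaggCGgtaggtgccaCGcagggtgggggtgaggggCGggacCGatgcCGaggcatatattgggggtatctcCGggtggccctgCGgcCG
Tet1, chr10:62887325-62887574, minus strand: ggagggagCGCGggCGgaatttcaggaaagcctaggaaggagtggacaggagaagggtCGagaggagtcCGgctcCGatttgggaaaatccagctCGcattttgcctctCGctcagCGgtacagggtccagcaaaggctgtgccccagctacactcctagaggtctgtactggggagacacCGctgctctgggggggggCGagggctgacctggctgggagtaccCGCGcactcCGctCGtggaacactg
Dnmt3a, the internal start, chr12:3891494-3891743, plus strand: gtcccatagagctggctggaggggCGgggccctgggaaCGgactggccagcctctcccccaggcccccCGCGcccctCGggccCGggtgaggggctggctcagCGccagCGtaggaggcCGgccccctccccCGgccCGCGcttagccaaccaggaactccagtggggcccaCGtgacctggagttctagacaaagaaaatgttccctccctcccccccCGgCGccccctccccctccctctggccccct
Dnmt1, the most upstream start, chr9:20959889-20960138, minus strand: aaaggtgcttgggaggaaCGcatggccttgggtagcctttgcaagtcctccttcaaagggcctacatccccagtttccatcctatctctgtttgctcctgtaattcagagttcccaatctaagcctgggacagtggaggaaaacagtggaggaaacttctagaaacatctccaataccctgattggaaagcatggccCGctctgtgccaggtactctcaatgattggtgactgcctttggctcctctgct
Dnmt3l, the first start, chr10:78042037-78042286, plus strand: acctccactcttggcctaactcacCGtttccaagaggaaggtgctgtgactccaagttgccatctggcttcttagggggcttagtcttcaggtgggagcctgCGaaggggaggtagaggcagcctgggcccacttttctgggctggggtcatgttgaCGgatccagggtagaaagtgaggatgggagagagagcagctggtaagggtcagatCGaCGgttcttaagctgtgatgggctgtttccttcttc
Dnmt3l, the second start, chr10:78049592-78049841, plus strand: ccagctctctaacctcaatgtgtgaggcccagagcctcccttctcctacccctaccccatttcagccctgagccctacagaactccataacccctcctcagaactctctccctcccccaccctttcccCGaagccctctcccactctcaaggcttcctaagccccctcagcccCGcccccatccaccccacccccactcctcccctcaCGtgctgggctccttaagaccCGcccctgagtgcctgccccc
Dnmt3l, the third start, chr10:78055085-78055334, plus strand: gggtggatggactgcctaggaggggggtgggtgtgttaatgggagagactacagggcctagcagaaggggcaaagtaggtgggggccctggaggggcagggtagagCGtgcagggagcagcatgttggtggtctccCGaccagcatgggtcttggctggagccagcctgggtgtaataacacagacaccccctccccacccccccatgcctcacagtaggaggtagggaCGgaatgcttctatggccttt

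Tet2 had 51 CG in this stretch, more than 99.9% of the 21262 start sites of the table. Dnmt1 had 26 at the start called main here, position 20952623, and 2 at the start farthest upstream. Position 20952623 is the most downstream of the Dnmt1 starts, and the name main does not rest on transcript use. The starts of Dnmt3l held 5, 4 and 3 CG. The starts not shown had a peak within 1 kb in all 10 libraries. They held 7 CG (Dnmt1, position 20952979), 10 and 30 (Uhrf1), 17 (Tet3), 19 (Tdg), 21 (Dnmt3b), and 38 and 40 (Dnmt3a, first starts). Over all start sites the median was 10 CG, with 17 for those with a peak within 1 kb in all 10 libraries (10811 starts) and 2 for those with a peak in no library (5835 starts). The letters GGGTGTGG or GGGCGTGG, a core that KLF factors are known to bind, were searched on both strands (a match of one cannot also be a match of the other). They were in 1 of the 16 promoters of the 9 genes (Uhrf1, the start at position 56304313) and in 9.29% of all promoters of the same length.

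From fibroblast to ESC, 7 of the 9 genes had a start site with a peak in all 10 libraries, the Tet1 start had one in 9, and Dnmt3l had no start that was open throughout. Of all starts, 50.8% had a peak within 1 kb in all 10 libraries. That share is per start and not per gene, and a gene with several starts has more chances to be counted. RefSeq gives 16 start sites for the 9 genes, and a start was counted as open if a peak lay within 1 kb of it in both libraries of a stage. By that count 12 were open in MEF (background of all 21262 starts 55.9%), 11 in DAY3 (55.7%), 12 in DAY6 (59.6%), 12 in DAY9 (62.8%) and 13 in ESC (61.9%). Starts of 1 gene often share a peak, so the 16 are not separate cases.

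**Figure D1:**
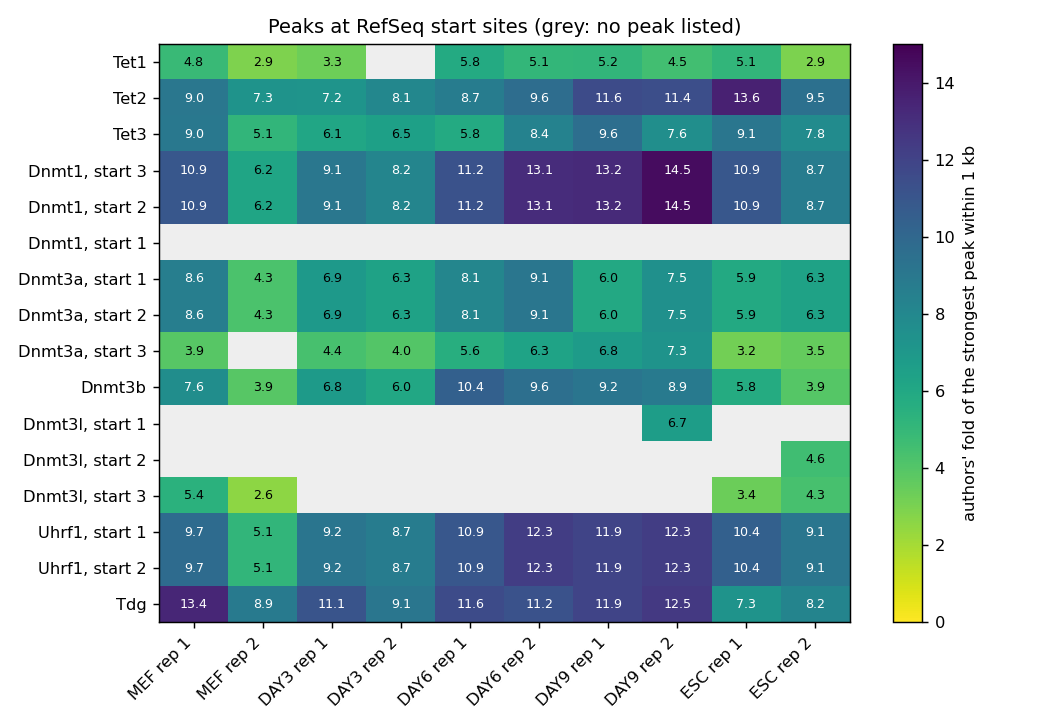
Peaks at the start sites of the 9 genes. Each row is a RefSeq start site, each column a library, and colour and the printed value give the authors' fold enrichment of the strongest peak within 1 kb (grey where no peak was listed). Rows of Tet2, Tet3, Dnmt3b and Tdg are filled in all 10 libraries, while the 3 Dnmt3l rows are mostly grey.

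At the Tet2 start, region chr3:133543918-133545289, all libraries had a peak with folds of 9.03 and 7.27 (MEF), 7.21 and 8.08 (DAY3), 8.69 and 9.63 (DAY6), 11.6 and 11.4 (DAY9), and 13.6 and 9.47 (ESC). The fold is the authors' own linear ratio of a peak's summit to its local background. It is used here only to describe peaks, since read depth is not stated and the lists differ in it: their commonest background pileup, recovered from fold and p-value, ran from 2.327 (DAY6 replicate 2) to 8.322 (MEF replicate 2). Between 12.2% and 19.7% of the peaks of a list carry a letter after their number, and what the letter marks is not stated, so a printed fold may belong to 1 of several summits of an interval.

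The Tet1 start was the weakest of the TET starts. Its region, chr10:62885462-62887693, had folds of 4.83 and 2.90 (MEF), 3.33 (DAY3 replicate 1), 5.81 and 5.09 (DAY6), 5.15 and 4.53 (DAY9), and 5.14 and 2.94 (ESC). DAY3 replicate 2 had no peak there. The Tet3 start, chr6:83441154-83442169, was open in all libraries with folds between 5.14 (MEF replicate 2) and 9.58 (DAY9 replicate 1).

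Dnmt1 was open at positions 20952623 and 20952979 and at no stage at its most upstream start. Both positions lie in the same region, chr9:20952165-20953374, which had folds from 6.20 (MEF replicate 2) to 14.5 (DAY9 replicate 2). None of the 10 libraries had a peak within 1 kb of position 20959888. Dnmt3a had a peak within 1 kb of its first starts in all libraries, in region chr12:3805988-3808981. The folds there ran from 4.26 (MEF replicate 2) to 9.13 (DAY6 replicate 2). A peak covered the start at position 3806980 itself in 7 libraries and the start at 3807160 in 4. Neither position was covered in the ESC libraries or in DAY6 replicate 1. RefSeq gives a further start inside the gene, in region chr12:3891051-3892158. This internal start had folds of 3.91 (MEF replicate 1), 4.38 and 3.99 (DAY3), 5.57 and 6.31 (DAY6), 6.78 and 7.31 (DAY9), and 3.21 and 3.52 (ESC). MEF replicate 2 had none.

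Dnmt3b, which is known to be highly expressed in pluripotent cells, had an open start in MEF as well. Its region, chr2:153649002-153650519, had folds of 7.63 and 3.89 (MEF), 6.81 and 5.98 (DAY3), 10.4 and 9.55 (DAY6), 9.17 and 8.87 (DAY9), and 5.79 and 3.93 (ESC). MEF and ESC overlapped. The 2 starts of Uhrf1, at positions 56303337 and 56304313, lay in separate regions that were present in all libraries. Region chr17:56302936-56303703, at the first, had folds from 2.44 (MEF replicate 2) to 6.24 (MEF replicate 1). Region chr17:56303718-56304645, at the second, was stronger, with folds from 5.11 (MEF replicate 2) to 12.3 (DAY6 replicate 2 and DAY9 replicate 2). At Tdg, region chr10:82629147-82630508 had folds from 7.29 (ESC replicate 1) to 13.4 (MEF replicate 1).

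Dnmt3l, the cofactor without catalytic activity, had 1 of its 3 starts open by the rule of both libraries, the third, in MEF and in ESC. This start, region chr10:78054552-78055622, had a peak in both MEF libraries (folds 5.44 and 2.57) and both ESC libraries (3.35 and 4.34) and in none of DAY3, DAY6 and DAY9. The second start had a peak in ESC replicate 2 alone, with a fold of 4.60, and the first start had one within 1 kb in DAY9 replicate 2 alone. Beside the first start, region chr10:78043256-78043967, centred 1.3 kb inside the gene, had no MEF peak. It had folds of 3.81 and 3.51 (DAY3), 7.19 and 4.21 (DAY6), 8.17 and 6.66 (DAY9), and 5.62 and 4.44 (ESC). This region also lies within 1 kb of the start of the neighbouring gene Aire, so it cannot be assigned to one of them.

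Around Tet2 the number of peaks was lowest in MEF and highest in DAY9 and ESC. MEF had 2 and 4 peaks in the 141.5 kb window, DAY3 had 8 and 5, DAY6 had 14 and 13, DAY9 had 16 and 17, and ESC had 23 and 16. The MEF, DAY3, DAY6 and DAY9 libraries did not overlap each other, and ESC replicate 2 was level with DAY9 replicate 1. The means were 3.0 ± 1.41 in MEF and 19.5 ± 4.95 in ESC (SD, n = 2). Peak numbers were not scaled by the window, which ran from 80.2 kb (Uhrf1) to 172.9 kb (Dnmt3a).

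Tet1 had fewer peaks, and ESC stood apart from the other stages. MEF had 5 and 5 peaks, DAY3 had 4 and 3, DAY6 had 7 and 7, DAY9 had 8 and 6, and ESC had 16 and 11. DAY3 lay below MEF, and both ESC libraries lay above all others.

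The order of stages was tested with an exact two-sided permutation test (Jonckheere-Terpstra) on all 21059 genes with at least 1 peak. The ordering index is the share of pairs of samples from different stages in which the later one had more peaks, minus the share in which it had fewer. Both DAY3 libraries agreed nearly as well as 2 draws from 1 library, as did both DAY9 libraries, so each pair was averaged to 1 sample, which left 8 samples. The index was 0.92 for Tet2 (p = 0.00198, adjusted p = 0.090, exact permutation test with Benjamini-Hochberg adjustment) and 0.76 for Tet1 (p = 0.0107, adjusted p = 0.121, same exact test). No gene of the table passed an adjusted p of 0.05 (0 genes rising and 0.0%, 0 falling and 0.0%), and the smallest adjusted p of any gene in this exact test was 0.0801. The smallest p that 8 samples allow here is 0.000397, reached by 84 genes, and at least 168 genes at that p, or still more at the next values, would have been needed for any to pass, so that a count of 0 says little about single genes.

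At an unadjusted p of 0.05 in the same exact test, 2 of the 9 genes had a rising order, Tet1 and Tet2, against 19.8% of all genes, and 0 had a falling order, against 2.08%. The lists themselves grew, from 64295 and 74444 peaks in MEF and 45497 and 45766 in DAY3 to 86585 and 88980 in ESC. The median index was 0.44 over the 9 genes, with 7 above 0, and 0.28 over all genes, with 15250 above 0. Read against that background, 2 genes of 9 is near the share of all genes.

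By size, few genes matched Tet2. A mean difference between ESC and MEF as large as that of Tet2 was found at 38 genes (0.18%), and one as large as that of Tet1 at 395 genes (1.88%). When the 45497 highest-scoring peaks of every list were compared, Tet2 had 1 and 3 peaks in MEF, 8 and 5 (DAY3), 12 and 12 (DAY6), 11 and 11 (DAY9), and 13 and 8 (ESC). A difference as large was then found at 32 genes (0.152%), and the index was 0.60 (p = 0.056, adjusted p = 0.301, exact permutation test). Over the alternatives without a library left out, the adjusted p of Tet2 lay between 0.0214, with 10 libraries counted as 10 samples, and 0.301 in this exact test. The setting with 10 samples counts the closely alike DAY3 and DAY9 pairs as separate samples.

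Tet1 did not keep its difference in lists of equal length. It then had 4 and 4 peaks in MEF, 4 and 3 (DAY3), 5 and 7 (DAY6), 5 and 5 (DAY9), and 7 and 3 (ESC), so that MEF and ESC overlapped. The index was 0.20 (p = 0.553, exact permutation test), and 30.6% of all genes had a mean difference at least as large.

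**Figure D2:**
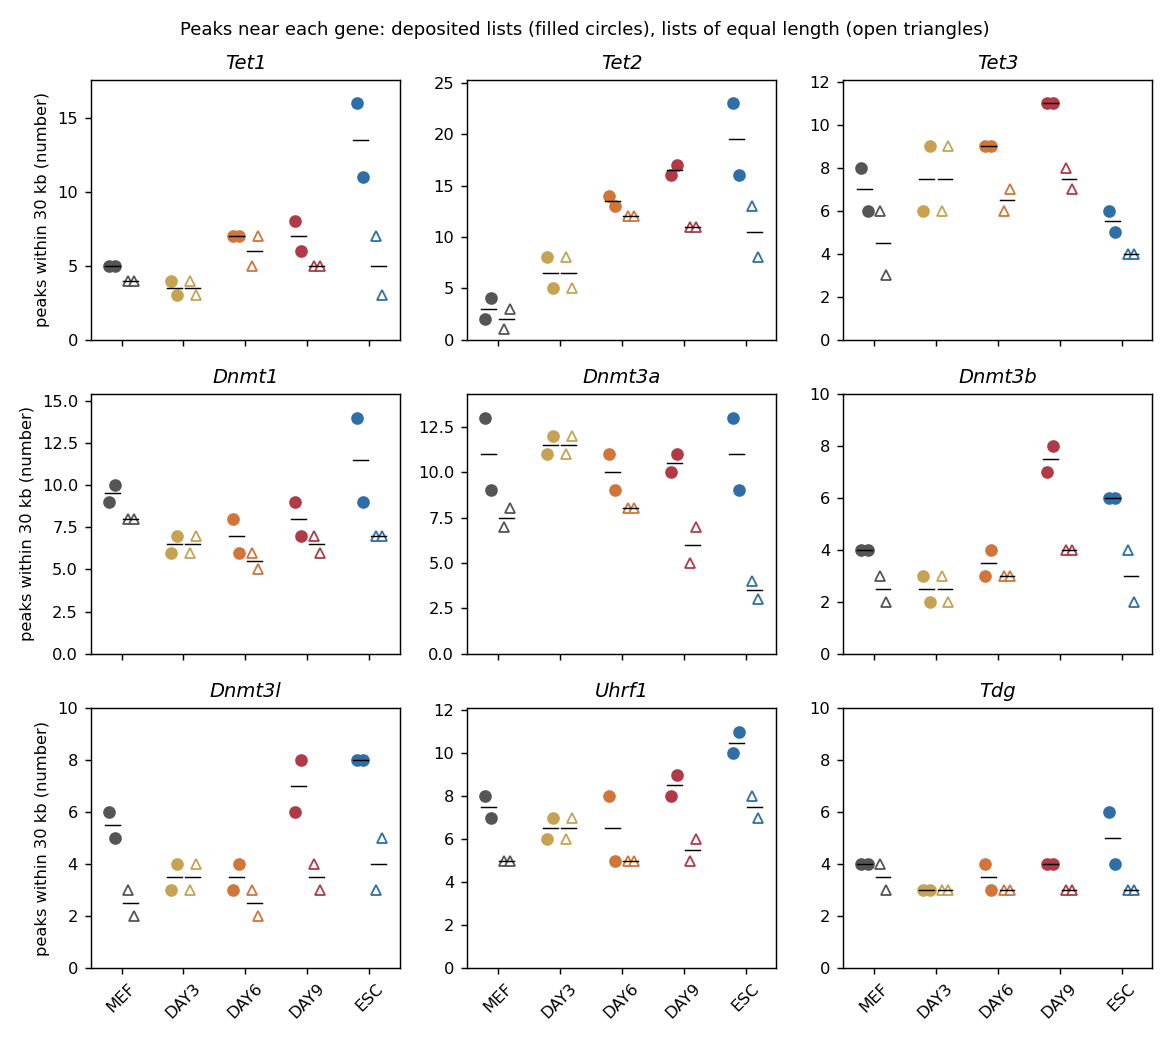
Number of peaks within 30 kb of each gene, 1 panel per gene, by stage in order. Filled circles are the 2 libraries in the deposited lists, open triangles the same in lists of equal length, and short lines their means. Tet2 runs from 2 and 4 peaks in MEF to 23 and 16 in ESC, while Dnmt3a stays between 9 and 13 in every library.

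None of the other 7 genes had an unadjusted p under 0.05 in this exact test. Tet3 had 8 and 6 peaks in MEF, 6 and 9 (DAY3), 9 and 9 (DAY6), 11 and 11 (DAY9), and 6 and 5 (ESC), with an index of 0.00. Its DAY9 libraries lay above all others and its ESC libraries within or below MEF. In lists of equal length DAY9 did not stand apart, with 8 and 7 peaks against 9 in DAY3 replicate 2. Dnmt3a had 13 and 9 peaks in MEF and the same 13 and 9 in ESC, with the other stages between 9 and 12.

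Dnmt3b had 4 and 4 peaks in MEF, 3 and 2 (DAY3), 3 and 4 (DAY6), 7 and 8 (DAY9), and 6 and 6 (ESC). The DAY9 and ESC libraries lay above all libraries of the 3 earlier stages, and the index was 0.44 (p = 0.185, exact permutation test). In lists of equal length Dnmt3b had 3 and 2 peaks (MEF), 3 and 2 (DAY3), 3 and 3 (DAY6), 4 and 4 (DAY9), and 4 and 2 (ESC). ESC then overlapped the earlier stages. Dnmt3l had 6 and 5 peaks in MEF, 3 and 4 at both DAY3 and DAY6, 6 and 8 (DAY9), and 8 and 8 (ESC), with an index of 0.44 (p = 0.171, exact permutation test).

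Of the genes that maintain and repair, Uhrf1 had 8 and 7 peaks in MEF, 6 and 7 (DAY3), 8 and 5 (DAY6), 8 and 9 (DAY9), and 10 and 11 (ESC), with an index of 0.56 (p = 0.0968, exact permutation test). Its index depended on the window: it was 0.00 within 10 kb (p = 1.0) and 0.76 within 100 kb (p = 0.00913, adjusted p = 0.0853, exact permutation test). Within 100 kb, 5186 of all genes tested had a rising order at an unadjusted p of 0.05 in the same test. Dnmt1 had between 6 and 14 peaks, with 9 and 10 in MEF and 14 and 9 in ESC, so that the end stages overlapped. Tdg had 3 or 4 peaks in every library except ESC replicate 1, which had 6.

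In lists of equal length Uhrf1 had an unadjusted p under 0.05, with an index of 0.60 (p = 0.0405, adjusted p = 0.268, exact permutation test), where 8.38% of all genes had a rising order and 8.14% a falling one. With scores at or above the pooled median the Uhrf1 index was 0.68 (p = 0.0262, adjusted p = 0.226, exact permutation test). In that setting 3229 of all genes tested had a rising order at an unadjusted p of 0.05 in the same test. Dnmt3a leaned the other way in lists of equal length, with 7 and 8 peaks (MEF), 11 and 12 (DAY3), 8 and 8 (DAY6), 5 and 7 (DAY9), and 4 and 3 (ESC). Its ESC libraries were then below all others (index -0.60, p = 0.056, exact permutation test), whereas in the full lists they matched MEF.

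Regions were next compared one by one. A region was gained between stages if both libraries of the later stage and neither of the earlier had a peak there, and lost in the opposite case. An exact permutation test of 2 against 2 libraries gives no two-sided p under 0.333, so these calls carry no p-value. They are read against the 152079 regions within 30 kb of any protein-coding gene.

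Near the 9 genes, 30 of the 175 regions (17.1%) were gained in ESC against MEF, where 14.7% of all such regions were, and 11 (6.29%) were lost, where 10.8% were. The gains lay unevenly over the genes: 12 near Tet2, 4 each near Tet1 and Dnmt3l, 3 near Uhrf1, 2 each near Dnmt1 and Dnmt3b, and 1 each near Tet3, Dnmt3a and Tdg. The losses were 4 near Dnmt3a, 2 each near Tet3 and Dnmt1, 1 each near Tet1, Dnmt3l and Tdg, and none near Tet2, Dnmt3b and Uhrf1. In lists of equal length there were 13 gains of 113 regions (11.5%, background 11.4%) and 7 losses (6.19%, background 12.5%), so that the share of gains was that of all regions. Of those gains 6 lay near Tet2 and 1 near Tet1. With scores at or above the pooled median the 9 gains of 84 regions (10.7%) were below the background of 14.5%. Asking for a peak in ESC replicate 1 alone, without ESC replicate 2, gave 59 gains (33.7%, background 25.5%), of which 20 were near Tet2 and 10 near Tet1. Without ESC replicate 1 there were 40 gains (22.9%, background 24.7%), 7 of them near Tet1. Without MEF replicate 1 there were 21 losses (12.0%, background 17.2%), and without MEF replicate 2 there were 18 (10.3%, background 19.2%). The share of gains was thus above or below the background depending on the ESC library used, and the share of losses was below it in each of these settings.

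**Figure D3:**
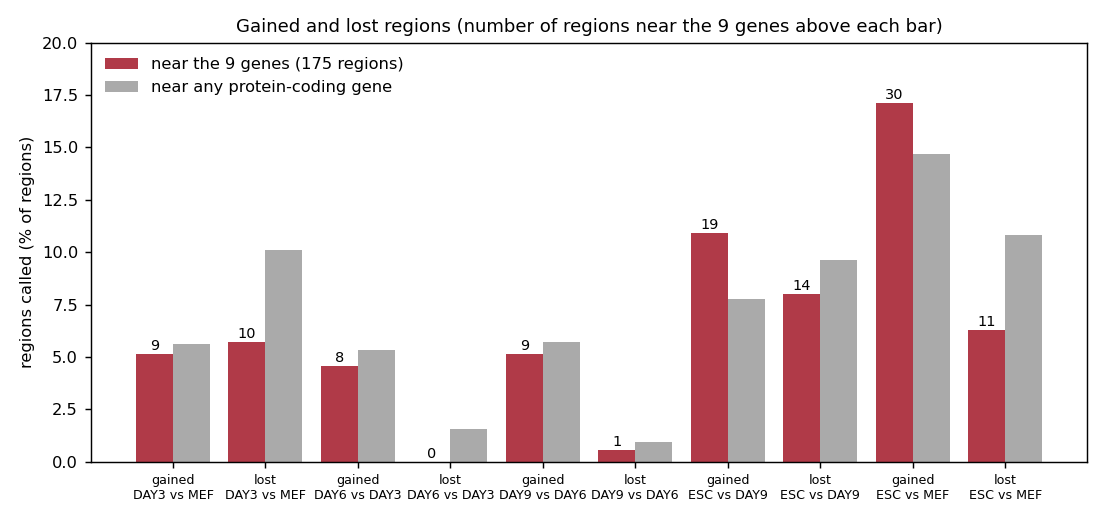
Percent of regions gained or lost at each step and between MEF and ESC, near the 9 genes (175 regions) and near all protein-coding genes (152079 regions). Red bars are the 9 genes, with the number of regions above each, and grey bars the background, and neither has an error since a share is 1 value per comparison. From MEF to ESC 17.1% of the regions near the 9 genes were gained against 14.7% of all, and 6.29% were lost against 10.8%.

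Step by step, 9 regions were gained from MEF to DAY3 (background 5.62%) and 10 lost (background 10.1%). From DAY3 to DAY6, 8 were gained (background 5.33%) and 0 lost (background 1.54%). From DAY6 to DAY9, 9 were gained (background 5.73%) and 1 lost (background 0.923%). From DAY9 to ESC, 19 were gained (10.9%, background 7.78%) and 14 lost (8.0%, background 9.64%). In the deposited lists the last step, between sorted reprogramming cells and the separate ESC line, held the most gains of the 4 steps. That order did not hold in lists of equal length, with 11, 6, 1 and 4 gains along the steps. These were 9.73%, 5.31%, 0.885% and 3.54% of 113 regions, against backgrounds of 11%, 4.23%, 3.65% and 6.38%. The first step thus held the largest share of gains among all regions too. Nor did the order hold with scores at or above the pooled median, with 7, 7, 7 and 3 gains. These were 8.33%, 8.33%, 8.33% and 3.57% of 84 regions, against backgrounds of 6.05%, 5.14%, 9.87% and 7.36%. Each of the counts from the deposited lists moved by over 1.5 times when 1 library was left out, since a single library then decides a stage. Without DAY3 replicate 1 or 2 the gains from MEF to DAY3 were 18 (background 8.02%) and 16 (8.05%), and without MEF replicate 1 or 2 the losses were 20 (16.8%) and 21 (20%). From DAY3 to DAY6 there were 14 gains (background 6.83%) and 10 losses (3.38%) without DAY3 replicate 1, and 3 losses (3.43%) without DAY3 replicate 2. Without DAY6 replicate 1 that step had 15 gains (9.66%) and 2 losses (2.84%), and without DAY6 replicate 2 it had 16 (11.5%) and 2 (2.20%). From DAY6 to DAY9 there were 14 gains (background 9.43%) and 3 losses (3.08%) without DAY6 replicate 1, and 14 (8.30%) and 5 (4.32%) without DAY6 replicate 2. Without DAY9 replicate 1 that step had 18 gains (9.77%), and without DAY9 replicate 2 it had 15 gains (9.59%) and 2 losses (1.54%). From DAY9 to ESC there were 42 gains without ESC replicate 2 (24.0%, background 16.6%), 28 gains without ESC replicate 1 (16%, background 16.4%) and 25 losses without DAY9 replicate 1 (background 13.3%).

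Of the 30 gained regions, 3 had DAY3 as the first stage open in both libraries (10.0%, against 9.73% of all gained regions). DAY6 was first for 6 (background 15.5%), DAY9 for 3 (17.7%) and ESC for 18 (60.0%, background 57.0%). Another 15 regions were open only in between, in both libraries of at least 1 reprogramming day and at neither end (8.57%, background 9.84%), 5 of them near Tet2 and 5 near Tet3. All 10 libraries had a peak in 25 regions (14.3%, background 9.43%). Of these, 11 lie within 1 kb of a listed start of another gene. That is a minimum, since some genes, such as Thy1 and Cdh1, have no entry among the start sites used. A single library alone had a peak in 61 regions (34.9%, background 35.8%), and 33 showed other patterns. Counting regions with a peak in both libraries of a stage, there were 41 in MEF (background 24.3%), 38 in DAY3 (19.6%), 50 in DAY6 (24.5%), 67 in DAY9 (34.3%) and 61 in ESC (29.6%). These are 23.4%, 21.7%, 28.6%, 38.3% and 34.9% of the 175 regions.

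Tet2 had 36 regions, the most of the 9 genes, and its window holds no start of another protein-coding gene of the table. In MEF 1 of the 36 was open in both libraries, the start site. The number was 4 (DAY3), 11 (DAY6) and 13 (DAY9 and ESC). Of its 12 gained regions, 6 lie inside the gene, 5 upstream and 1 downstream, and the first stage open in both libraries was DAY3 for 2, DAY6 for 4, DAY9 for 1 and ESC for 5. At least 12 gained regions were found at 123 genes (0.584%), a count not scaled for window length and given for the member with the most gains.

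The strongest gained region of Tet2 lies inside the gene, 19.5 kb from the start, at chr3:133524355-133525458. No MEF library had a peak there, and the folds were 10.9 and 9.45 (DAY3), 12.9 and 14.8 (DAY6), 13.1 and 12.8 (DAY9), and 9.67 and 9.27 (ESC). DAY3 cells, the earliest with this peak, were not sorted. A second region in the gene, chr3:133506299-133507111, had 4.36 (DAY3 replicate 1), 6.48 and 5.76 (DAY6), 8.53 and 6.18 (DAY9), and 10.6 and 4.50 (ESC).

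Upstream of Tet2, region chr3:133559602-133560196, 15.5 kb before the start, was first open at DAY6. Its folds were 7.26 and 6.58 (DAY6), 4.55 and 4.59 (DAY9), and 9.30 and 4.72 (ESC). The strongest region open only between the end stages was chr3:133509912-133510635, inside the gene, with 4.40 and 6.51 (DAY3), 5.77 and 9.18 (DAY6), and 6.15 and 6.02 (DAY9). By the rule for such regions it had no peak in either end stage, whereas a gained region by its rule has a peak in both ESC libraries.

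**Figure D4:**
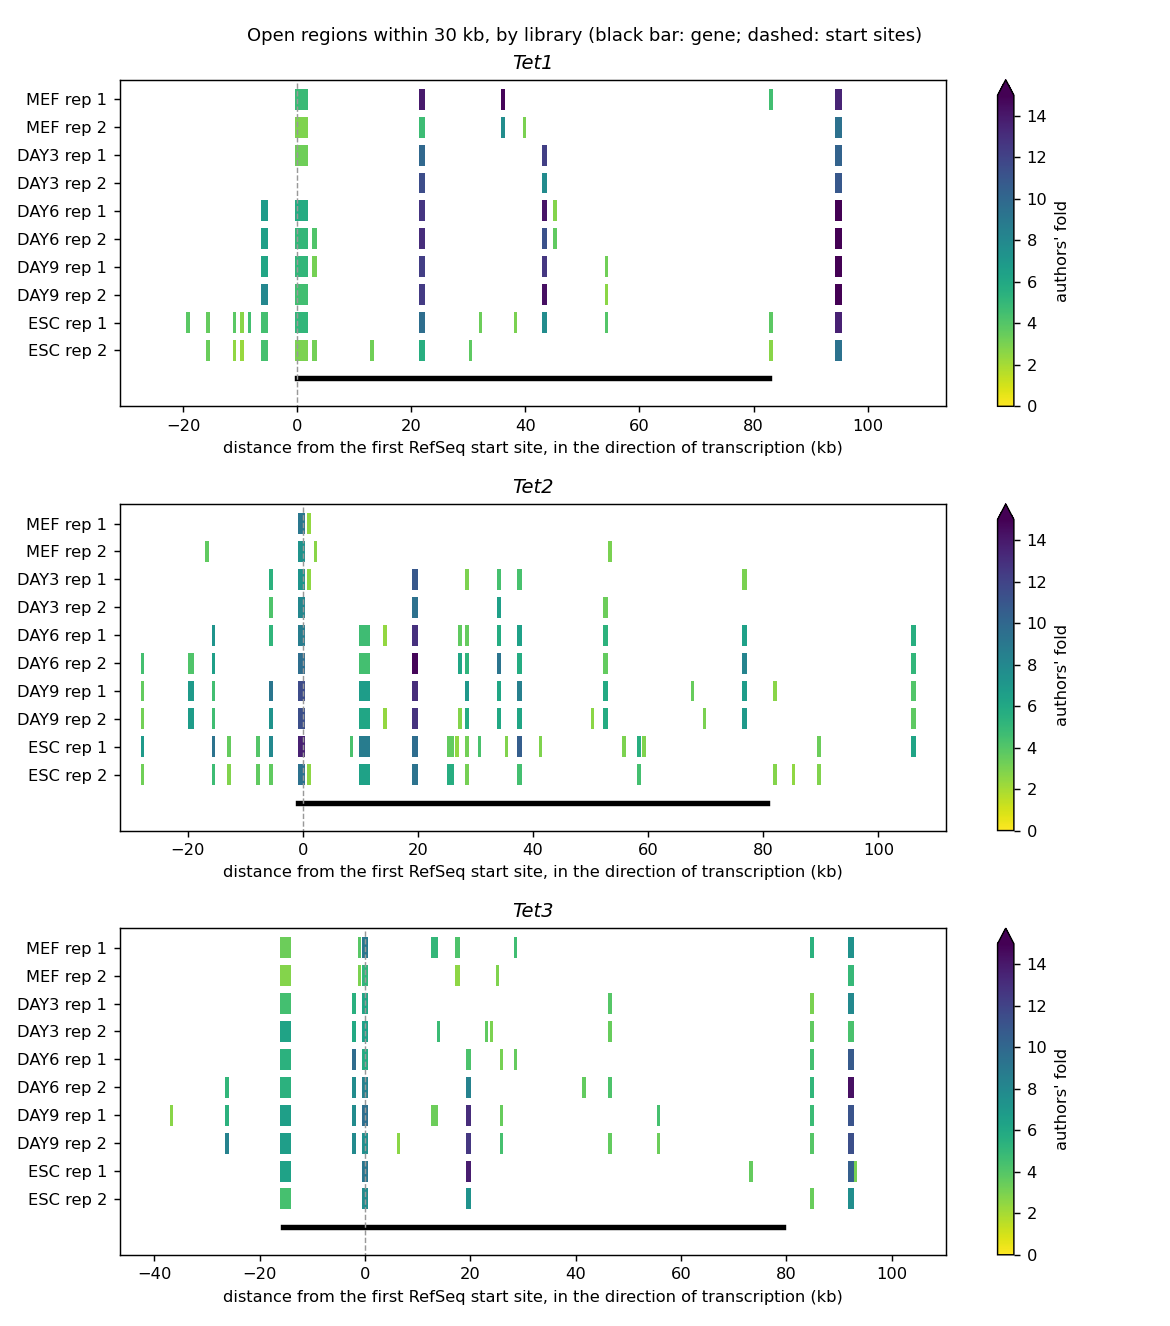
Regions around Tet1, Tet2 and Tet3 by library. The horizontal axis is the distance in kb from the first start site along the gene's strand, each row is a library, colour gives the authors' fold, the black bar is the gene, dashed lines are start sites, and narrow regions are widened to be visible. The Tet2 rows fill in from MEF, where the start site alone is open in both libraries, to DAY9 and ESC, where 13 regions are.

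Around Tet1, 1 region was lost and 4 were gained, all 4 upstream of the start. The lost region, chr10:62850939-62851578, 36.1 kb inside the gene, had folds of 14.8 and 7.72 in MEF and no peak in any later library. The gained region nearest the start, chr10:62892530-62893768, 5.8 kb upstream, had folds of 6.85 and 6.61 (DAY6), 6.21 and 8.03 (DAY9), and 4.50 and 4.41 (ESC). The other 3 gained regions were open in ESC alone, and the strongest, chr10:62898120-62898567, had folds of 3.81 and 2.49.

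A further Tet1 region was chosen after its values were seen, because it is strong and missed the rule for gained regions by 1 library. It lies at chr10:62843497-62844371, 43.4 kb from the start, and had no peak in MEF or in ESC replicate 2. Its folds were 12.2 and 7.81 (DAY3), 14.2 and 11.3 (DAY6), 12.6 and 14.4 (DAY9), and 7.74 (ESC replicate 1). MEF and DAY3 thus each had a strong peak inside Tet1 that the other lacked.

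Tet3 had 5 regions that were open only between the end stages, beside 1 gained and 2 lost. The strongest of the 5, chr6:83443304-83444044, lies 2.0 kb before the start site given above but inside the RefSeq gene. Its folds were 5.48 and 5.94 (DAY3), 9.76 and 7.78 (DAY6), and 7.80 and 7.91 (DAY9). A weaker region beside it, chr6:83442558-83442955, had a peak in MEF alone, with folds of 3.87 and 2.94. The gene runs on upstream of that start site, to position 83457208. Region chr6:83455692-83457906, at that end, had a peak in all libraries, with folds from 2.79 (MEF replicate 2) to 6.67 (DAY9 replicate 2). The gene's only gained region by the rule, chr6:83421641-83422575, 19.6 kb inside, had folds of 4.27 and 8.42 (DAY6), 13.1 and 12.6 (DAY9), and 13.8 and 7.43 (ESC). Of the 23 Tet3 regions, both libraries had 5 (MEF), 6 each in DAY3 and DAY6, 9 (DAY9) and 4 (ESC).

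Dnmt3a, one of the enzymes that set new methylation, had the most losses, 4 of its 23 regions, all inside the gene. Region chr12:3824809-3825477 had folds of 7.64 and 4.12 in MEF and no later peak, and chr12:3887355-3888112 had 5.00 and 3.65 in MEF and no later peak. Region chr12:3855607-3856592 was last listed at DAY6, with folds of 4.51 and 4.04 (MEF), 4.97 and 3.83 (DAY3) and 4.94 (DAY6 replicate 1). The one gained region, chr12:3889751-3890241, had folds of 5.23 and 3.34 in ESC alone and lies upstream of the internal start.

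Dnmt3b had 2 gained regions of 12 and no lost one. Region chr2:153622437-153623137, 26.7 kb upstream, had folds of 7.33 and 6.69 in DAY9 and 6.02 and 4.65 in ESC, and no peak before DAY9. The start of Commd7 lies between this region and the Dnmt3b start, so the region may belong to Commd7. Region chr2:153660697-153661031, inside the gene, had 3.57 and 3.10 in ESC alone. Both libraries had 2 of the regions in MEF and in DAY3, 3 (DAY6), 6 (DAY9) and 4 (ESC).

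Dnmt3l gained 4 regions of 16, of which the one beside its first start, given above, was open from DAY3. Region chr10:78067293-78067712, downstream, had 3.41 (DAY6 replicate 2), 2.96 and 3.58 (DAY9), and 4.38 and 4.26 (ESC). It lies between the end of Dnmt3l and the region at the start of Icosl, chr10:78069003-78070098, so it may belong to Icosl. Region chr10:78048091-78048800, inside the gene, had 4.24 and 4.32 in ESC alone. The lost region, chr10:78091815-78092270, had folds of 4.80 and 3.09 in MEF and lies 49.8 kb from the first start, with the start of Icosl in between.

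**Figure D5:**
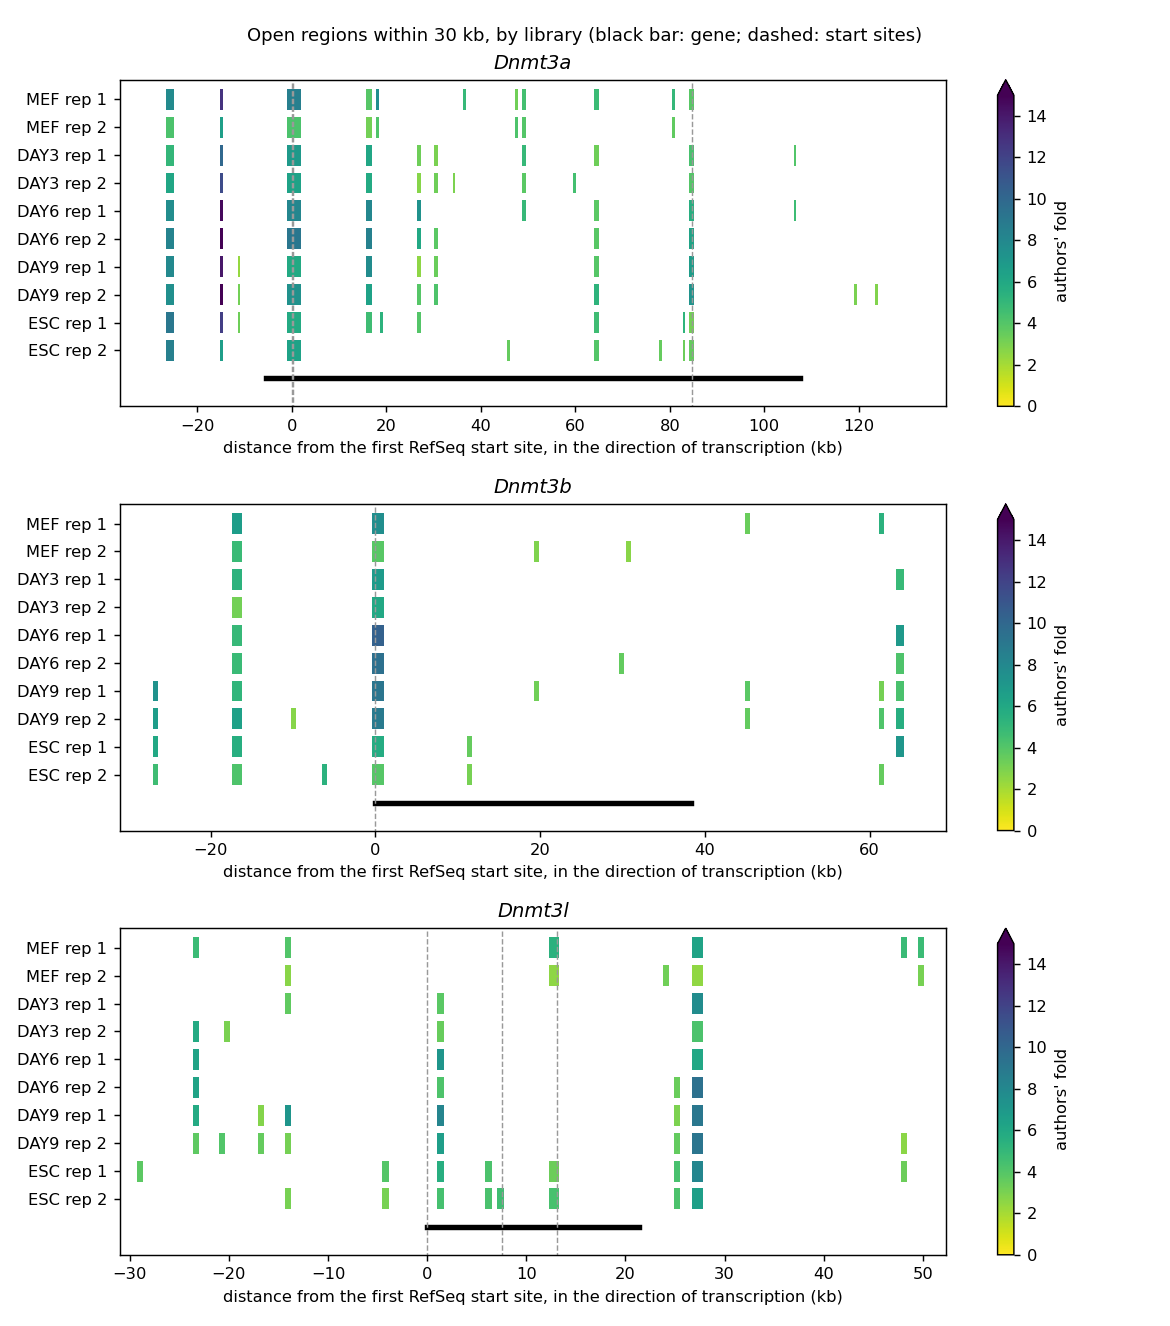
Regions around Dnmt3a, Dnmt3b and Dnmt3l by library, drawn as in the map of the TET genes. The horizontal axis is the distance in kb from the first start site and colour gives the authors' fold. Dnmt3a keeps its start region in all 10 libraries and has 4 regions inside the gene that are open in both MEF libraries and in no ESC library, and the Dnmt3l region at 1.3 kb is absent from both MEF rows alone.

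The genes of maintenance and repair, Dnmt1, Uhrf1 and Tdg, had 6 of the 30 gained regions. Near Dnmt1 the gained regions chr9:20978925-20979600 (folds 6.81 and 4.55) and chr9:20983153-20983584 (5.63 and 2.49) were open in ESC alone, and they lie 19.4 and 23.5 kb upstream of the first start. A lost region, chr9:20971837-20973047, had 5.74 and 4.22 in MEF and 2.82 in DAY3 replicate 2. The Dnmt1 window holds starts of Angptl6, Eif3g, Ppan and S1pr2, so its distal regions may belong to those genes.

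Uhrf1 gained 3 regions of 15, all weak: the folds of its gained regions in ESC lay between 2.21 and 3.89. Its window holds starts of Arrdc5, Kdm4b, Plin3 and Ticam1. Tdg gained chr10:82652379-82653056, with folds of 11.4 and 5.27 in ESC and no peak in the other stages. It lies downstream of the gene, 22.9 kb from the start, and is the strongest gained region of the 9 genes among those open in ESC alone. Tdg lost chr10:82630766-82631364, beside its start, with folds of 3.53 and 2.29 in MEF.

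Other genes of cytosine methylation, its removal and its reading were taken as a list of 29, of which 28 were in the table. By the unadjusted exact test 7 of the 28 had a rising order of peak number (19.8% of all genes) and 0 a falling one (2.08%), with a median index of 0.40 and 24 above 0. Of their 332 regions, 52 (15.7%) were gained in ESC against MEF (background 14.7%) and 19 (5.72%) lost (background 10.8%).

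Zfp57, a zinc finger protein that guards methylation at imprinted genes, had the most gains, 8 of 14 regions. It had 3 and 4 peaks in MEF, 5 and 5 (DAY3), 6 and 5 (DAY6), 9 and 9 (DAY9), and 11 and 12 (ESC), with an index of 0.96 (p = 0.000794, adjusted p = 0.0801, exact permutation test). Dppa3, which protects the maternal genome from demethylation in the early embryo, and Smug1, a glycosylase, gained 5 of 17 regions each, and Apobec1, a cytidine deaminase, 5 of 25. Slc23a2, a transporter of ascorbic acid, lost 4 of 19 regions. Apobec1 and Dppa3 are neighbours on chromosome 6, so their windows share regions.

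For Tet2 and Tet1 the genes elsewhere in the genome with the most similar peak numbers over the 10 libraries were listed as a description. For Tet2 they were Bend3 (Pearson's r 0.985, Spearman's rho 0.975), Olfr221 (0.984 and 0.969) and Ppp4r3a (0.983 and 0.922). For Tet1 they were Mapk8 (0.983 and 0.953), Igsf21 (0.980 and 0.942) and Pet117 (0.980 and 0.943). All genes share the libraries' list lengths, and the 10 libraries stand for 8 samples.

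Stage labels were checked at start sites of marker genes by the same rule of 1 kb in both libraries. Of 6 fibroblast genes with an entry, of 8 listed, all 6 were open in MEF, and 4 (DAY3), 3 (DAY6), 2 (DAY9) and 3 (ESC) later, and Postn and Col3a1 had no ESC peak. Of 8 pluripotency genes, of 12 listed, 3 were open in MEF and in DAY3, 6 in DAY6 and all 8 in DAY9 and ESC, and Nanog, Tdgf1 and Lin28a had no MEF peak. All 3 epithelial genes with an entry were open in ESC and 0 in MEF, and Cdx2, an extraembryonic gene, was open in ESC alone. Of the blood genes Ptprc had no peak in any library, and Cd68 was open in DAY3, DAY9 and ESC. The part of other cell types, such as feeders in ESC, in the values of the 9 genes was not tested.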

How the data were processed

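ATAC-seq was read from 10 peak lists, 1 per library and not pooled, as the authors deposited them. The submitters' processing notes name Bowtie2 2.3.2, MACS2 2.1.1, deepTools 2.3.6 and build mm10, without roles; filters and read depth are not given in the sources used here. Each deposited list gives a score, a fold enrichment (a linear ratio) and -log10 p-values and q-values per peak. The score is 10 times the -log10 p-value, rounded down.

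Genes, start sites and promoters came from RefSeq (GRCm38.p6, the mm10 assembly), and all 9 genes matched. Exons and introns were not analysed here. Lists were merged into regions where peaks overlapped by at least 1 bp. Genes were taken with 30 kb on both sides. Named are the start-site regions and, per gene, at most 4 gained, lost or in-between regions with the highest fold. Of the pathway list the 4 genes with the most gains and the 2 with the most losses were to be named, of which 1 is not reported here, and for Tet1 and Tet2 the 3 genes most alike with a mean of at least 2 peaks, over 200 kb away. The members and lists were chosen with earlier results of these data known.

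The trend test enumerated the 5040 assignments of 8 samples to stages, with a smallest p of 0.000397, and was tested on simulated data. Summit pileups of 100 to 200, recovered from fold and -log10 p-value, differed between the libraries of a stage by 1.33 times counting noise in DAY3, 1.42 in DAY9, 3.62 in DAY6, 5.6 in MEF and 8.11 in ESC, which is why the DAY3 and DAY9 pairs count once. The labels call the libraries biological replicates but do not tie them to animals, so p-values may measure technical spread. Python 3.11.15, NumPy 2.4.6, pandas 2.3.3 and SciPy 1.17.1 were used.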

Additional observations from a re-analysis of the deposited data

How the results depend on the processing

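Calls of regions depend on list length, window and the demand for both libraries, and read depth is unknown, so a missing peak is a peak not listed and not closed chromatin. Within 10 kb, gains from DAY6 to DAY9 were 5 (4.0% of regions, background 5.65%) and from DAY9 to ESC 12 (9.6%, background 7.38%). From MEF to ESC they were 19 (15.2%, background 14.2%). Within 100 kb, losses from MEF to DAY3 were 22 (7.05%, background 10.3%). From DAY3 to DAY6 gains were 14 (4.49%, background 5.4%) and losses 2 (0.641%, background 1.52%). From DAY6 to DAY9 they were 16 (5.13%, background 5.68%) and 2 (0.641%, background 0.946%). From DAY9 to ESC they were 31 (9.94%, background 8.2%) and 24 (7.69%, background 9.54%). From MEF to ESC they were 51 (16.3%, background 15.2%) and 21 (6.73%, background 11%), with 20 gains near Tet2. In lists of equal length, losses from MEF to DAY3 were 5 (4.42%, background 8.67%) and from DAY3 to DAY6 1 (0.885%, background 4.18%). Gains and losses from DAY6 to DAY9 were 1 (0.885%, background 3.65%) and 3 (2.65%, background 2.36%). From DAY9 to ESC they were 4 (3.54%, background 6.38%) and 9 (7.96%, background 11%). From MEF to ESC they were 13 and 7, where the gains are at the background given above. With scores at or above the pooled median (133), which left 84 regions, losses from MEF to DAY3 were 4 (4.76%, background 8.92%) and gains from DAY9 to ESC 3 (3.57%, background 7.36%). From MEF to ESC there were then 9 gains (10.7%, background 14.5%) and 5 losses (5.95%, background 9.57%), with 5 gains near Tet2 and 1 near Tet1. Asking a peak to cover 50% of a region gave 1 loss from DAY3 to DAY6 (0.571%, background 1.65%). Leaving out 1 library at a time, gains and losses ranged over 9 to 18 and 12 to 21 from MEF to DAY3, 10 to 16 and 2 to 10 from DAY3 to DAY6, 14 to 18 and 1 to 5 from DAY6 to DAY9, 19 to 42 and 19 to 25 from DAY9 to ESC, and 30 to 59 and 12 to 21 from MEF to ESC.

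In the trend test 1 of the 9 genes, Tet2, passed an adjusted p of 0.05 in 3 alternatives of the exact permutation test: with base pairs covered in place of peak number (adjusted p = 0.0496), with 10 libraries as 10 samples (adjusted p = 0.0214) and with a replicate block (adjusted p = 0.0492). The settings with 10 samples and with a replicate block count the DAY3 and DAY9 pairs as separate samples. Those pairs agreed nearly as well as 2 draws from 1 library, so these p-values may be too small. Of the 21059 genes tested, 803, 1607 and 223 had a rising order at an adjusted p at or under 0.05 in the 3 alternatives. Replicate numbers did not pair the samples, since the correlation of same-numbered libraries' deviations lay between -0.055 and 0.0324. Over these alternatives and those that left out a library, the index of Tet2 stayed above 0. The index of Dnmt1 was -0.16 and that of Tdg -0.24 in lists of equal length, and neither was past the threshold in any alternative. At start sites, 2.5 kb in place of 1 kb gave 12 to 15 open starts over the stages, and equal lists 9 to 12.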
